A study of Homo sapiens with 20 samples.

Results

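The type I interferon response was followed as 29 genes, chosen by name, of the 54261 features in an RNA-seq count table of TPC-1 cells. TPC-1 is a human papillary thyroid carcinoma line. It was grown for 48 h with PMN-MDSCs (coculture, 6 libraries) or left untreated (control, 4 libraries), and no other agent or genetic change is named for either group. PMN-MDSCs, the polymorphonuclear myeloid-derived suppressor cells, are neutrophil-lineage cells that restrain T cell responses. How the 2 cell types were kept together, where the PMN-MDSCs came from and whether they were removed before RNA extraction is not stated in the labels. In such bulk libraries, fewer cells of a type and less RNA per cell cannot be told apart. The labels do not tell separate cultures from repeated preparations, so the p-values below rest on the spread among these 10 samples, part of which may be technical. Over all genes, each library was closest to a neighbour in number within its group, such as coculture 1 and 2 or control 3 and 4. If such pairs were repeats of the same culture, the independent samples would be fewer than the libraries.

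Type I interferons bind the IFNAR1 and IFNAR2 receptor chains, and the kinases JAK1 and TYK2 then phosphorylate STAT proteins, STAT2 among them. IRF9 joins them in a transcription complex, ISGF3, that binds the interferon-stimulated response element (ISRE) near the starts of antiviral genes. The products sense viral RNA, degrade it, block its translation or hold virions at the cell surface, and several of them switch the pathway off again. Epithelial and carcinoma cells usually carry the receptors and a low basal level of the response.

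The ISRE shows in the DNA just before many of these genes. Its core was searched as GAAANNGAAA, or TTTCNNTTTC on the other strand, where N is any base, and overlapping matches were counted separately. The windows ran from 250 bases before to 50 bases after each RefSeq start in GRCh38.p14. A window existed for 23 of the 29 genes, with DDX58 found under its current symbol RIGI, and 16 of the 23 (69.6%) held the core in at least 1 window. Over all 27305 genes with a window the share was 4.38%, over the tested genes 4.09%, and over 46 other interferon-stimulated genes 45.7%. The stretches of 7 genes are shown because the results below turn on them, 6 from among those with the smallest p-values or widest spreads and HERC5 as the gene that did not move with the rest. Each is printed 5′ to 3′ on the gene's own strand, with the core matches in capitals.
BST2, chr19:17405725-17405780, minus strand: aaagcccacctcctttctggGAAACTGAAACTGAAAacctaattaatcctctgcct
MX1, chr21:41420559-41420588, plus strand: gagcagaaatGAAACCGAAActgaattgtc
IFIH1, chr2:162318685-162318725, minus strand: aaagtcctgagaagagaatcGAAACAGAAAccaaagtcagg
EPSTI1, chr13:42992262-42992311, minus strand: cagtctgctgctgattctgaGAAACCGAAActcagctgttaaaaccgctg
IFI6, chr1:27672256-27672327, minus strand: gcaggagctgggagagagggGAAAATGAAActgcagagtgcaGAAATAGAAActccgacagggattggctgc
ISG15, chr1:1013364-1013419, plus strand: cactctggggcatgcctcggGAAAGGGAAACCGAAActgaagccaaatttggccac
HERC5, chr4:88457025-88457074, plus strand: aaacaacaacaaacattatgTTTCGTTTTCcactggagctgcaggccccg

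In BST2 and ISG15 the core occurred as 2 overlapping copies, beginning 130 and 113 bases before the start. IFIH1 and HERC5 also held 2 overlapping copies, in stretches not shown that began 159 and 125 bases before the start. In EPSTI1, IFIH1 and HERC5 the copy shown began 50, 21 and 74 bases before the start, and in IFI6 the first of the pair shown began 115 bases before it. The MX1 copy lay in transcribed sequence, 12 bases past one of its annotated starts. The 7 genes with a window but no core were OAS1, DDX58, STAT2, IRF9, XAF1, HERC6 and CMPK2. A match describes letters in a window and is no evidence of binding, and a missing match says only that these letters were not in it. The 14 tested genes with a core had a median log2 fold change of 0.86 (-0.11 to 5.36), and the 6 tested genes without it 0.70 (0.41 to 1.36), ranges that overlap.

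Library totals ran from 40237801 to 48197608 counts, and 15629 genes passed the filter on low counts (at least 10 counts scaled to the library size, which was 0.237 CPM, a read count per 1e6 counts of the library's scaled total, in at least 4 libraries). Coculture libraries 1 and 2 stood apart from the rest on the first principal component of all genes (47.7% of the variance), at -51.4 and -47.7 against 0.137 to 20.6 for the other 8. Thyroid and epithelial markers of the line were present, with PAX8, the thyroid lineage factor, at 496 to 769 CPM and KRT18, a keratin, at 281 to 430 CPM. Of the 10 tested, 0 were called by edgeR (adjusted p of 0.377 or more), DESeq2 or limma-voom. At an unadjusted edgeR p under 0.05 there were 2, beside 9.66% of all genes tested.

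The interferon response genes were on balance higher in coculture, by a modest and very uneven amount. All 29 had a row in the table and 25 passed the filter, 22 of them on the controls alone. BST2, IRF7 and CMPK2 passed only through their coculture libraries. Of the 25, 24 had a positive log2 fold change and 1, HERC5, a negative one, where 51.7% of all 15629 genes tested were positive. The median was 0.85, and 0.83 over the 22 that passed on controls alone, against 0.01 over all genes tested. By edgeR's quasi-likelihood test with Benjamini-Hochberg adjustment over all 15629 genes, BST2 and MX1 rose, 0 fell and 23 were not called, beside 1.14% of all genes called higher and 0.186% called lower. Among genes that passed on the controls alone, 1 of these 22 (MX1) was called higher, beside 89 of all 14233. DESeq2 called 6 of the 25 higher (BST2, MX1, IFI6, IFIH1, USP18 and EPSTI1), beside 2.13% of all genes, limma-voom called BST2 alone, and neither called any lower. At an unadjusted edgeR p under 0.05 there were 18 of the 25 (72%), all higher, beside 9.66% of all genes tested in either direction. In 7 of the 25 (IFI6, IFI44, MX1, IFIH1, USP18, BST2 and EPSTI1) every coculture library lay above every control, which held for 2.45% of all genes tested. Of the 7, BST2 passed the filter through coculture alone.

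**Figure D1:**
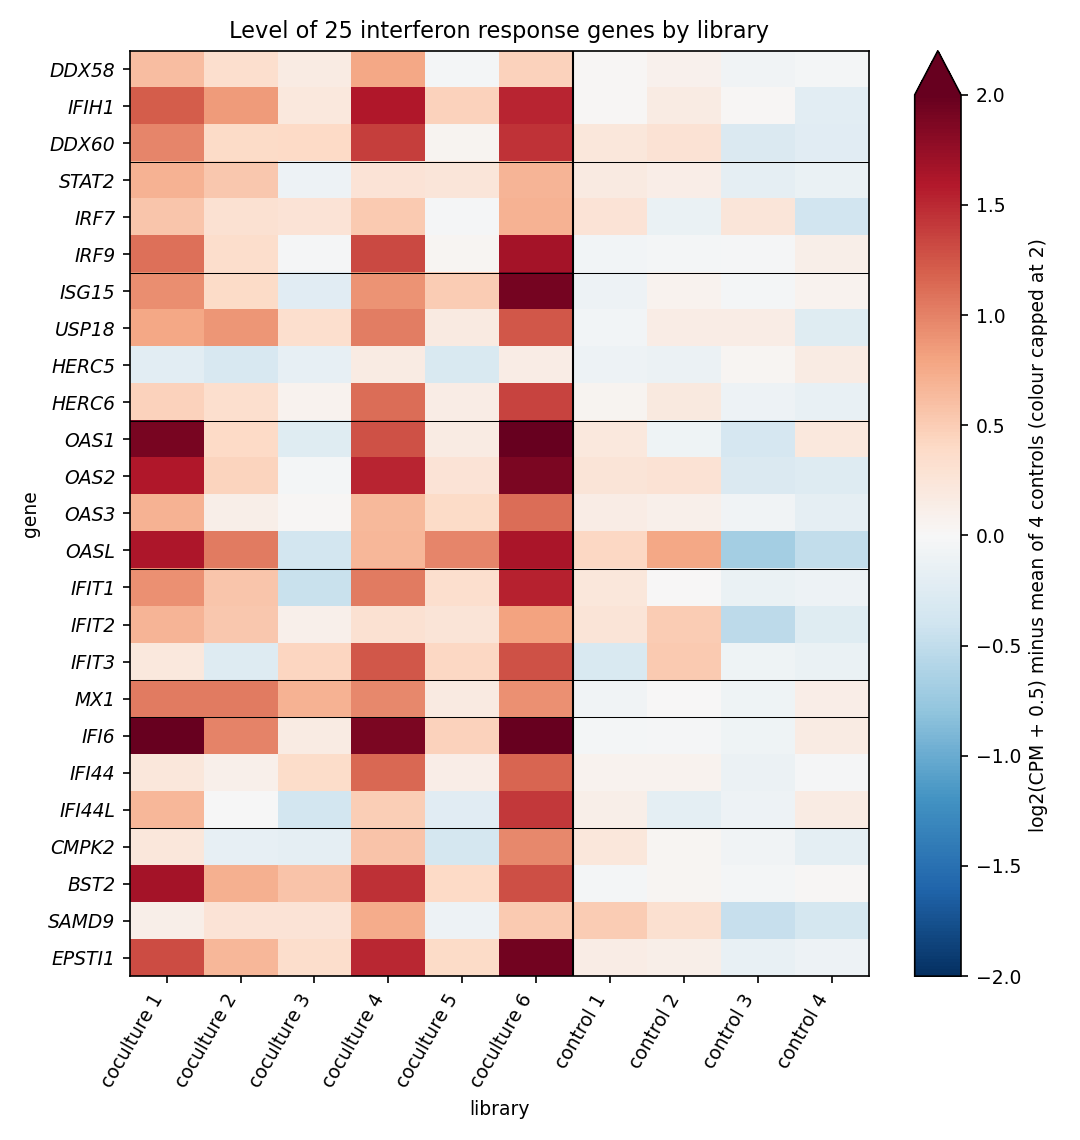
Level of the 25 tested interferon response genes (rows, grouped by role) in the 6 coculture and 4 control libraries (columns), as log2(CPM + 0.5) minus the mean over the 4 controls, with the colour capped at 2. Coculture libraries 1, 4 and 6 are red over most rows, coculture 3 and 5 are pale, and HERC5 is near the control level in every library.

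The cytoplasmic RNA sensors of the list were DDX58, IFIH1 and DDX60. IFIH1 (MDA5), which detects long double-stranded RNA, measured 7.18, 5.52, 3.34, 9.53, 4.07 and 9.05 CPM in coculture 1 to 6 and 2.88, 3.21, 2.86 and 2.37 CPM in control 1 to 4. Every coculture value was above every control value, with coculture 3 only just so. Its log2 fold change of 1.19 ± 0.29 (SE) had an edgeR adjusted p of 0.0881. DDX60, a helicase that promotes signalling by these sensors, measured 9.36, 6.02, 6.06, 12.5, 4.68 and 13.0 CPM against 5.34, 5.61, 3.57 and 3.75 CPM. Coculture 5 lay within the control range, and the log2 fold change was 0.91 ± 0.30 (edgeR adjusted p = 0.268). DDX58 (RIG-I), which detects short RNA with a 5′ triphosphate, ran from 15.1 to 26.8 CPM in coculture and from 14.6 to 16.5 CPM in controls, a log2 fold change of 0.42 ± 0.15 (edgeR adjusted p = 0.327).

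Of the transcription factors, IRF9, the DNA-binding subunit of ISGF3, measured 38.5, 22.8, 17.4, 44.7, 18.1 and 57.0 CPM in coculture 1 to 6. The controls held 16.9, 17.2, 17.4 and 19.3 CPM, so that coculture 3 and 5 were at the control level while coculture 6 was far above it. The log2 fold change was 0.90 ± 0.32 (edgeR adjusted p = 0.315). STAT2, its partner in the complex, ran from 22.7 to 39.97 CPM in coculture and from 21.5 to 27.7 CPM in controls (log2 fold change 0.41 ± 0.16). IRF7, which amplifies interferon gene transcription, was near the detection floor at 0.202 to 0.650 CPM against 0.045 to 0.363 CPM (0.97 ± 0.50). The row of IRF7 spans chr11:142448-615999 and overlaps many other genes, among them IFITM3, so its counts are uncertain. The edgeR adjusted p was 0.393 for STAT2 and 0.570 for IRF7.

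ISG15, a ubiquitin-like protein joined to other proteins during the response, measured 37.3, 25.5, 16.5, 36.5, 27.6 and 74.3 CPM in coculture. The controls were close together at 17.9, 20.3, 18.8 and 20.4 CPM, with coculture 3 below all of them and the other 5 above. Its log2 fold change was 0.90 ± 0.33 (edgeR adjusted p = 0.337). USP18, the protease that removes ISG15 and also damps signalling at IFNAR2, measured 7.34, 7.92, 5.27, 8.80, 4.68 and 10.3 CPM against 3.89, 4.60, 4.58 and 3.37 CPM. The groups did not overlap, although coculture 5 lay only slightly above control 2, and the log2 fold change was 0.85 ± 0.22 (edgeR adjusted p = 0.119). HERC5, the ligase that attaches ISG15, was the gene that stood outside the pattern, at 15.6, 14.5, 16.2, 20.4, 14.7 and 20.4 CPM against 17.0, 16.8, 18.8 and 20.6 CPM. Coculture 4 and 6 were its highest coculture libraries too, but none of the 6 exceeded control 4. Its log2 fold change was -0.11 ± 0.13 (edgeR adjusted p = 0.825). HERC6, its neighbour on chromosome 4, ran from 7.75 to 19.7 CPM in coculture and from 6.64 to 8.50 CPM in controls, a log2 fold change of 0.70 ± 0.26 (edgeR adjusted p = 0.376).

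The oligoadenylate synthetases make the short messenger that switches on RNase L, which then cleaves RNA. OAS1 measured 14.3, 4.72, 2.84, 9.08, 3.92 and 19.3 CPM in coculture 1 to 6 against 4.08, 3.21, 2.64 and 4.09 CPM in the controls. Coculture 3 and 5 lay inside the control range and coculture 6 at 6.80 times coculture 3. OAS2 measured 7.57, 3.10, 2.08, 7.11, 2.70 and 9.25 CPM against 2.67, 2.72, 1.67 and 1.72 CPM. Its libraries fell in a like order, with coculture 6, 1 and 4 high and coculture 3 and 5 at the control level. OAS3 was the most abundant of the 29 by CPM, at 165, 111, 104, 159.7, 133 and 221 CPM against 113, 109, 97.2 and 89.9 CPM. The log2 fold changes were 1.36 ± 0.49 for OAS1, 1.27 ± 0.42 for OAS2 and 0.54 ± 0.19 for OAS3, with edgeR adjusted p-values of 0.339, 0.275 and 0.313. OASL, a relative without synthetase activity that enhances RIG-I signalling, ran from 4.27 to 18.7 CPM against 3.35 to 10.01 CPM (0.996 ± 0.406, edgeR adjusted p = 0.433).

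The IFIT proteins bind viral RNA and hinder its translation, and their genes lie side by side on chromosome 10. IFIT1 ran from 4.96 to 21.1 CPM in coculture against 6.28 to 8.29 CPM, IFIT2 from 4.89 to 8.21 against 2.98 to 6.65 CPM, and IFIT3 from 9.94 to 29.4 against 9.55 to 17.4 CPM. All 3 overlapped between groups and had coculture 6 as the highest library. Their log2 fold changes were 0.81 ± 0.31, 0.45 ± 0.23 and 0.64 ± 0.30, and their edgeR adjusted p-values 0.384, 0.569 and 0.523.

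MX1, a dynamin-like GTPase that traps viral nucleocapsids, rose in coculture and was called with or without TMM scaling. It measured 2.34, 2.32, 1.74, 2.19, 1.06 and 2.10 CPM in coculture 1 to 6 and 0.812, 0.890, 0.800 and 1.02 CPM in control 1 to 4. Coculture 5 was just above control 4 while the other 5 coculture libraries lay between 1.74 and 2.34 CPM, so the rise was not carried by 1 or 2 of them. Its log2 fold change was 1.15 ± 0.25 (edgeR adjusted p = 0.0399). The call was lost on leaving out any library except coculture 5 (edgeR adjusted p of 0.0528 to 0.159), and also without both coculture 1 and coculture 2 (0.0667) and with limma-voom (0.0967). MX2, its relative active against retroviruses, had 3, 0, 3, 6, 0 and 7 counts in coculture and none in the controls. The coculture mean of MX2 was 1.08 times a floor of 3 counts in each control library. MX2 was not tested, and coculture 2 and 5 had no count.

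**Figure D2:**
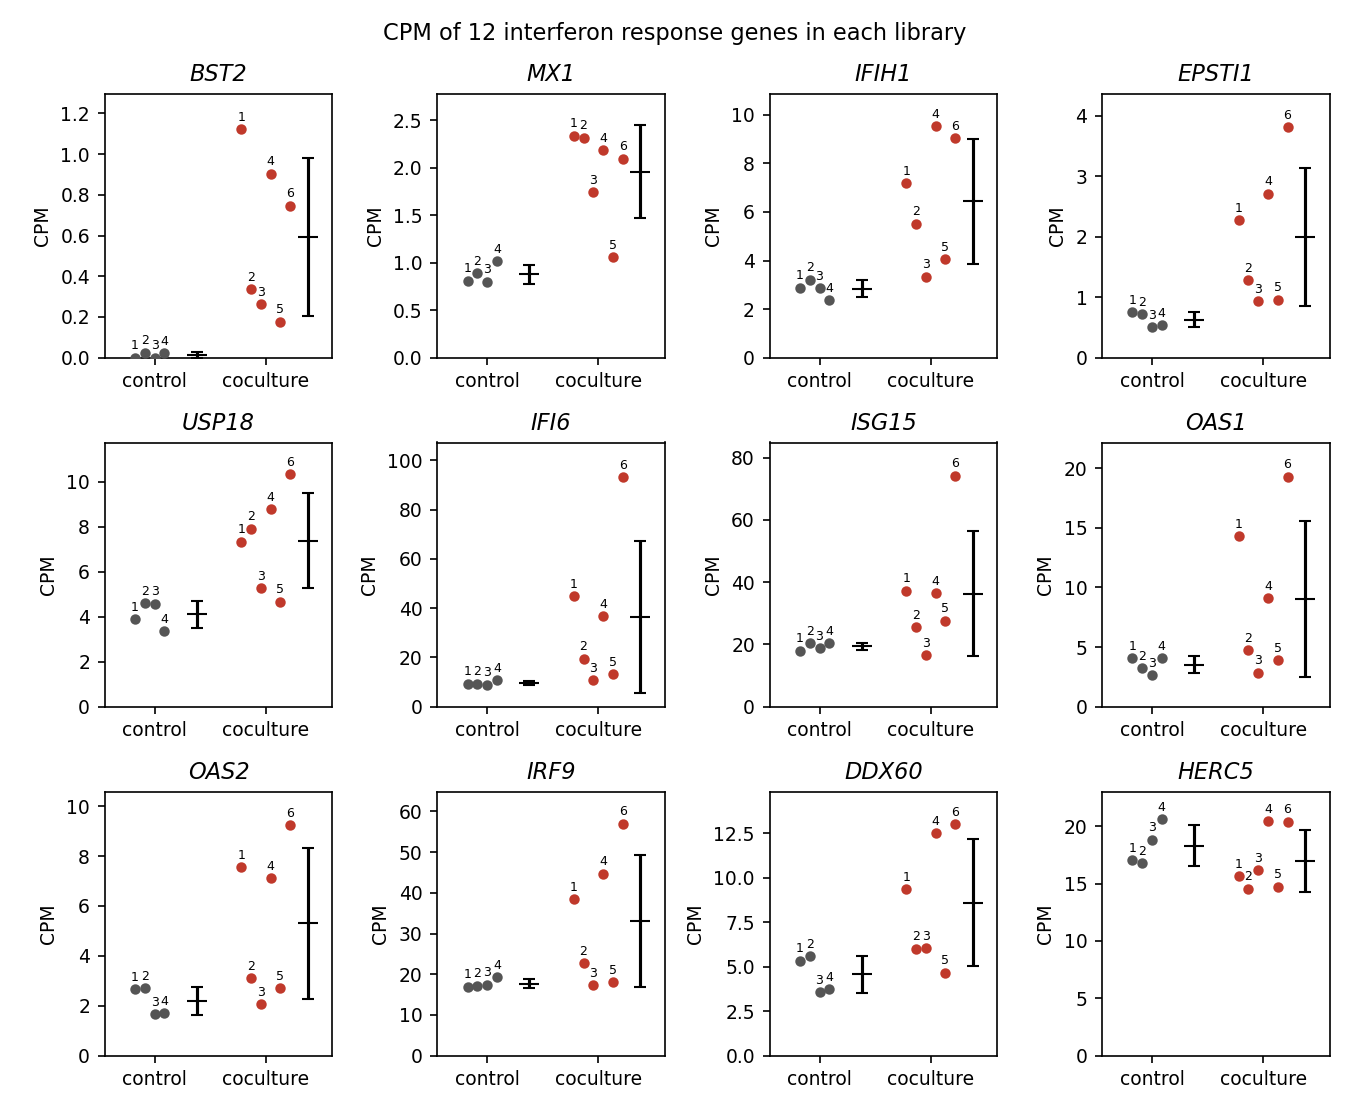
CPM of 12 interferon response genes in each library (points, numbered as in the text), with the mean and SD of each group (bars), control n = 4 and coculture n = 6. Coculture 3 and 5 lie near the controls in most panels, while MX1 is raised in 5 of the 6 coculture libraries and HERC5 overlaps the controls.

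IFI6, a small membrane protein that blocks virus replication organelles and cell death, had the largest fold change among those of the 25 genes with counts in all 10 libraries. It measured 44.9, 19.5, 10.7, 36.7, 13.3 and 93.1 CPM in coculture against 9.27, 9.32, 8.90 and 10.7 CPM in controls. Every coculture library was above every control, yet coculture 3 exceeded control 4 by little and coculture 6 held 42.7% of the gene's summed coculture CPM. The log2 fold change was 1.93 ± 0.54 (edgeR adjusted p = 0.153), with an SD of log2(CPM + 0.5) of 1.16 within coculture and 0.11 within controls. IFI44L, an interferon-induced gene of unsettled function, measured 2.52, 1.39, 0.978, 2.19, 1.14 and 4.57 CPM against 1.58, 1.16, 1.29 and 1.65 CPM. Coculture 3 and 5 were below every control and coculture 6, 1 and 4 above every control, and the log2 fold change of 0.58 ± 0.40 had an edgeR adjusted p of 0.678. IFI44, next to it on chromosome 1, ran from 25.6 to 53.6 CPM against 21.8 to 25.1 CPM, with no overlap (0.61 ± 0.23, edgeR adjusted p = 0.377). IFI27 had 15 counts in coculture 1, 1 in coculture 6 and 2 in control 4, and its row lies on a scaffold outside the main chromosomes, so nothing is read from it.

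BST2 (tetherin), which anchors budding virions to the cell membrane, was called on few reads. It had 49, 16, 11, 38, 7 and 31 counts in coculture 1 to 6 and 0, 1, 0 and 1 in the controls, or 1.12, 0.337, 0.262, 0.903, 0.177 and 0.746 CPM against at most 0.025 CPM. Every coculture library was above every control, and coculture 1, 4 and 6 were again the highest. The ratio of summed, depth-scaled counts was 51.2 (95% interval 13.9 to 427, counting error only), and the edgeR adjusted p was 0.00720. The gene passed the low-count filter through coculture alone, and it no longer passed with a stricter filter or without coculture 1 and 2. Under the other alternatives that could fit it, its adjusted p was at most 0.0384.

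EPSTI1, an interferon-induced gene first described in breast epithelium, measured 2.27, 1.28, 0.930, 2.71, 0.960 and 3.80 CPM against 0.748, 0.717, 0.509 and 0.542 CPM. The groups did not overlap, and coculture 3 and 5 were again the lowest of the 6. Its log2 fold change was 1.66 ± 0.42 (edgeR adjusted p = 0.105). SAMD9, a translation inhibitor that restricts poxviruses, ran from 5.10 to 9.53 CPM against 3.88 to 8.03 CPM (0.29 ± 0.24, edgeR adjusted p = 0.738). CMPK2, a mitochondrial nucleotide kinase, ran from 0.051 to 0.867 CPM against 0.113 to 0.320 CPM (0.70 ± 0.68, edgeR adjusted p = 0.783). RSAD2 (viperin), which makes a chain-terminating nucleotide, had 3, 1, 0, 1, 6 and 8 counts in coculture and 1, 1, 0 and 4 in controls. RSAD2 and CMPK2 overlap on opposite strands, and the use of strand is not stated, so their few reads cannot be told apart. XAF1, a pro-apoptotic partner of XIAP, had 8, 0, 1, 13, 0 and 6 counts in coculture and none in the controls. The coculture mean of XAF1 was 1.58 times the floor of 3 counts in each control library. XAF1 was not tested, and coculture 2 and 5 had no count. All but 1 of the counts of XAF1 came from coculture 1, 4 and 6.

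Levels of different genes can be compared per transcript length. ISG15 was the highest at 66.5 ± 3.54 TPM (length-scaled abundance, SD, n = 4) in controls, followed by OAS3 at 35.5 ± 5.59, IFI6 at 25.4 ± 1.69 and IRF9 at 24.1 ± 0.772 TPM. IFI6 and IRF9 differed by less than their summed spreads, and each of the other neighbours in this order was further apart. In coculture ISG15 stood at 121 ± 67.2 TPM and IFI6 at 93.7 ± 79.9 TPM (SD, n = 6), means within each other's spread. MX1 was at 0.584 ± 0.0510 TPM in controls and BST2 at 0.0262 ± 0.0304 TPM, both under 1 TPM. The OAS, IFIT and HERC genes and SAMD9 have close relatives, and reads that match several of them may have been split or dropped in counting, which is not stated.

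**Figure D3:**
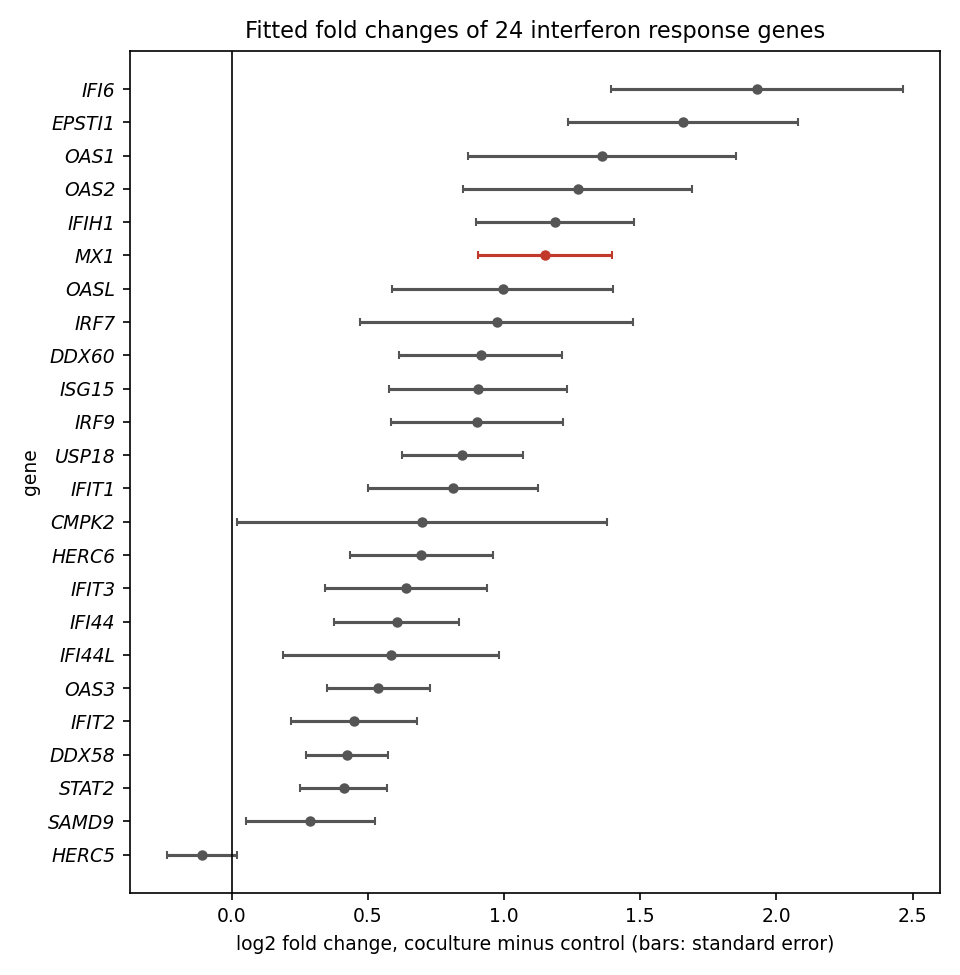
Log2 fold change, coculture minus control, of the 24 tested interferon response genes other than BST2, with the standard error as bars (edgeR). MX1, in red, is the called gene among them; IFI6 has the largest value (1.93) and HERC5 the only negative one (-0.11).

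The shift was spread over the 6 coculture libraries in a clear order. Against the control mean, the median shift of the 25 genes in log2(CPM + 0.5) was 1.28 in coculture 6, 1.02 in coculture 4 and 0.78 in coculture 1. It was 0.39 in coculture 2, 0.18 in coculture 5 and 0.10 in coculture 3. On a linear scale these medians equal 2.44, 2.03, 1.71, 1.31, 1.13 and 1.07 times the control mean. The single controls deviated from their own mean by medians of -0.13 to 0.12, so coculture 3 lay inside the spread of the controls and coculture 5 barely outside. Over all genes tested, the library medians stayed between -0.00026 and 0.0135. The range between the highest and lowest library median was 1.18 for the 25 genes, 0.37 for 55 other interferon-stimulated genes and 0.0138 for all genes. The library order was the same with a pseudocount of 0.1 or 2 CPM, without TMM scaling and over all 29 genes, with ranges of 1.04 to 1.40.

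Gene by gene the same libraries led. Coculture 6 was the highest library in 18 of the 25 genes, coculture 4 in 4 (IFIH1, DDX58, HERC5 and SAMD9) and coculture 1 in 3 (BST2, MX1 and STAT2). Coculture 3 was the lowest in 14, coculture 5 in 8 and coculture 2 in 3. Over all genes tested, coculture 6 was the highest of the 6 in 8.60% and coculture 3 the lowest in 18.8%. Coculture 6 exceeded all 4 controls in 24 of the 25 genes, coculture 1 and 4 in 22 each, coculture 2 in 19, coculture 5 in 12 and coculture 3 in 9. For all genes tested the corresponding shares ran from 18.8% in coculture 5 to 34.5% in coculture 2.

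The unevenness was far wider than between controls. The SD of log2(CPM + 0.5) had a median of 0.53 over the 25 genes within coculture and 0.17 within controls, and it was larger within coculture in 22 of the 25. For all genes tested the medians were 0.24 and 0.17, and 69.1% were wider within coculture. The highest coculture library exceeded the lowest by a median of 2.96 times (1.40 for HERC5 to 17.2 for CMPK2, which had few counts), against 1.61 times over all genes. The order of the 6 libraries did not follow their split on the first principal component, on which coculture 1 and 2 stood apart and coculture 4 and 6 did not. Within the pairs of coculture libraries closest over all genes, the median shift differed. It was 0.78 and 0.39 in coculture 1 and 2, and 0.10 and 1.02 in coculture 3 and 4. In coculture 5 and 6 it was 0.18 and 1.28.

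The roles differed in how wide their spread was. The oligoadenylate synthetase family ran from a median shift of -0.14 in coculture 3 to 1.76 in coculture 6, and the RNA sensors from 0.05 in coculture 5 to 1.44 in coculture 6. The IFIT family ran from 0.10 to 1.27 and the ISG15 system from -0.05 to 1.30, each from coculture 3 to coculture 6. MX1 differed from these, with shifts of 1.04, 1.03, 0.70, 0.96, 0.18 and 0.91 in coculture 1 to 6. No test compared the roles with each other.

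**Figure D4:**
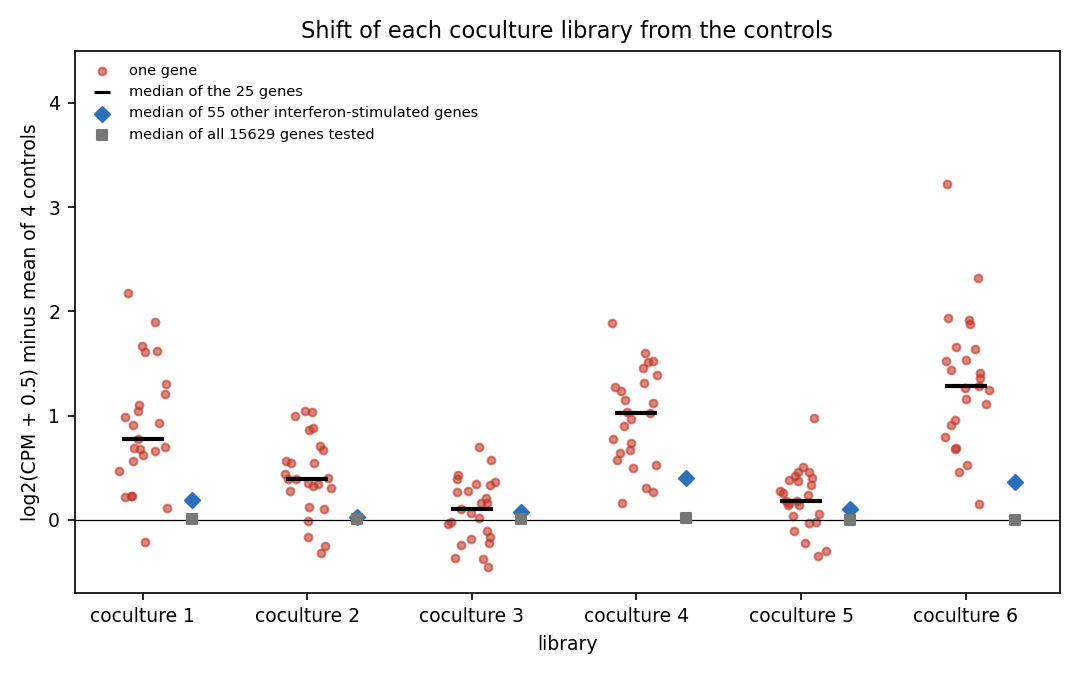
Shift of each of the 25 tested genes (points) in each coculture library, as log2(CPM + 0.5) minus the mean over the 4 controls, with the median of the 25 genes (black line), of 55 other interferon-stimulated genes (blue) and of all 15629 genes tested (grey). The black line stands at 0.10 in coculture 3 and at 1.28 in coculture 6, while the grey squares stay at 0.

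Almost no reads came from the interferon genes themselves. Of 21 type I and type III interferon ligand genes, 17 had no count in any library, IFNB1 and the 4 lambda interferons (IFNL1 to IFNL4) among them. A count of 0 allows up to 0.0758 CPM in the shallowest library, by the floor of 3 counts. IFNA5 had 4 counts in coculture 3 and 1 in control 1, and IFNA6 and IFNA14 had 1 each in coculture 1. IFNE, an epithelial type I interferon, was the ligand that passed the filter, with 5, 11, 20, 10, 7 and 9 counts in coculture and 26, 23, 26 and 25 in the controls. Every coculture value was below every control in CPM, and its log2 fold change was -1.25 ± 0.36 (edgeR adjusted p = 0.164).

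The receptor chains and the signalling genes just below them were present, and 0 of these 10 genes were called by edgeR, DESeq2 or limma-voom. At an unadjusted edgeR p under 0.05 there were 2, beside 9.66% of all genes tested. IFNAR1 was at 44.5 ± 6.25 CPM in coculture and 44.9 ± 5.29 CPM in controls. By the smallest adjusted p came IFNGR1, a chain of the interferon gamma receptor (log2 fold change 0.30 ± 0.10), IFNAR2 (0.41 ± 0.15) and IL10RB, a chain of the lambda interferon receptor (0.16 ± 0.08), with edgeR adjusted p-values of 0.291, 0.339 and 0.543.

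Of 18 further nucleic acid sensors, adaptors and kinases of the arm that switches interferon genes on, 12 were tested. By edgeR (adjusted p of 0.195 or more), DESeq2 or limma-voom 0 were called. At an unadjusted edgeR p under 0.05 there were 6, beside 9.66% of all genes tested. MAVS, the mitochondrial adaptor of RIG-I and MDA5, was at 145 ± 20.7 CPM against 187 ± 17.9 CPM, a log2 fold change of -0.37 ± 0.11. IKBKE, a kinase of IRF3, was at 50.9 ± 12.4 against 35.5 ± 2.97 CPM (0.52 ± 0.16), and TMEM173 (STING), the adaptor for cytosolic DNA, at 49.2 ± 22.9 against 26.1 ± 6.00 CPM (0.91 ± 0.30). TMEM173 reached 72.6 and 83.7 CPM in coculture 1 and 2 and 31.1 to 38.8 CPM in the other 4, an order unlike that of the 25 genes. Of the 12, 10 had a positive fold change.

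Among 59 other interferon-stimulated genes, 55 were tested, 51 of them with a positive fold change, and the median log2 fold change was 0.25. By edgeR 1 was higher and 0 were lower, beside 1.14% and 0.186% of all genes tested. Of the 51 that passed the filter on the controls alone, 0 were called higher. An unadjusted edgeR p under 0.05 was met by 16 of the 55 (29.1%), beside 9.66% of all genes. DESeq2 called 7 higher, beside 2.13% of all genes. The 1 called by edgeR, LGALS9, encodes galectin 9, and had 0.298, 0.274, 0.429, 1.02, 0.278 and 0.457 CPM in coculture and no control count. The coculture mean of LGALS9 was 6.60 times the floor of 3 counts in each control library. In 15 of the 55 (27.3%), coculture 1, 4 and 6 all stood above coculture 2, 3 and 5. This held for 16 of the 25 interferon response genes (64%) and 1.59% of all genes tested. HELZ2, a helicase and coactivator named after its values were seen, was 1 of these 15. It measured 167, 116, 64.5, 136, 91.4 and 168 CPM in coculture against 82.1, 73.8, 48.9 and 46.4 CPM. Its coculture 3 value lay inside the control range, and its log2 fold change was 0.98 ± 0.27 (edgeR adjusted p = 0.139).

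Of 19 genes that lean towards interferon gamma, 8 were tested. By edgeR 1 was higher and 0 were lower, beside 1.14% and 0.186% of all genes tested. Of the 7 that passed the filter on the controls alone, 0 were called higher. An unadjusted edgeR p under 0.05 was met by 3, beside 9.66% of all genes. DESeq2 also called GBP2, an interferon-induced GTPase, whose log2 fold change was 1.77 ± 0.46 (edgeR adjusted p = 0.119), with 5 of 6 coculture libraries above every control. The 1 called by edgeR was IRF8, a factor of myeloid and B cells, at 0.596, 0.295, 0.334, 1.28, 0.430 and 0.385 CPM with no control count. Its coculture mean was 7.95 times the floor of 3 counts in each control library. LGALS9 and IRF8 passed the low-count filter through coculture alone. IRF1, the early factor of that response, was at 28.0 ± 6.08 against 20.4 ± 2.99 CPM (log2 fold change 0.46 ± 0.17, edgeR adjusted p = 0.349). CXCL10, an interferon-induced chemokine named after its values were seen, had 3 counts in all, each in coculture 4, and IFNG had 1, also in coculture 4. The rows of PSMB8, PSMB9 and TAP1 were listed at 0 in all 10 libraries, and nothing is read from them.

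Of 15 negative regulators of interferon signalling, 14 were tested. By edgeR 2 were higher and 0 were lower, beside 1.14% and 0.186% of all genes tested. Of the 13 that passed the filter on the controls alone, 1 was called higher. PTPN6 (SHP-1), a phosphatase of blood cells, was at 1.79, 0.695, 1.29, 2.14, 1.34 and 2.17 CPM in coculture against at most 0.0641 CPM (edgeR adjusted p = 0.000367), and it passed the low-count filter through coculture alone. TNFAIP3 (A20), a feedback inhibitor of NF-kB, rose to 18.4, 16.6, 17.6, 43.0, 19.9 and 28.0 CPM from 3.59, 7.79, 3.06 and 2.96 CPM (adjusted p = 0.00352). SOCS1, the classical inhibitor of JAK kinases, was at 15.5 ± 10.1 against 15.9 ± 5.65 CPM (-0.04 ± 0.43, adjusted p = 0.984).

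For markers with a control mean under 1 CPM, the summed levels of pan-leukocyte, neutrophil and monocyte markers were higher in each of the 6 coculture libraries than in any control. This also held for the full neutrophil and monocyte lists. Over all 20 pan-leukocyte markers, coculture 3 (583 CPM) lay inside the control range (533 to 600 CPM) and the other coculture libraries above it. Only 8 of 16 tested pan-leukocyte, 3 of 8 tested neutrophil and 1 of 7 tested monocyte markers passed the low-count filter on the controls alone, so their summed levels are given and their calls are not. For each list, CPM was summed over the markers with a control mean under 1 CPM. The sum for 13 of 20 pan-leukocyte markers was 11.4, 5.77, 9.30, 15.9, 9.37 and 13.99 CPM in coculture 1 to 6 and 1.02 to 1.61 CPM in the controls. Coculture 4, 6 and 1 were the 3 highest, as for the median of the interferon genes, but the order below them differed. Coculture 2 was the lowest here, and coculture 3 the lowest for the interferon genes. The sum for 24 of 27 neutrophil and PMN-MDSC markers was 10.6, 5.35, 14.5, 14.9, 12.5 and 20.3 CPM against 0.226 to 0.684 CPM, an order in which coculture 3 stood above coculture 1. FCGR3B, CXCR1, CXCR2, ELANE, PRTN3, MMP8 and ARG1, which define neutrophils and their precursors, had no count in any library. The sum for 19 of 20 monocyte and macrophage markers was 26.9, 17.1, 23.6, 20.6, 21.0 and 28.0 CPM against 0.684 to 1.21 CPM, with AIF1 and C1QA at 0 throughout.

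Over all 14 lymphocyte markers (T, NK and B cells) the summed level did not rise. It was 5.29 to 10.7 CPM in coculture and 7.398 to 10.9 CPM in controls, with coculture 3 and 6 below every control. Those with a control mean under 1 CPM were low, and highest in the coculture libraries that led the interferon genes, though in another order. The sum for 13 of 14 T, NK and B cell markers was 1.24, 0.168, 0.0715, 3.80, 0.126 and 0.915 CPM in coculture 1 to 6 and at most 0.128 CPM in the controls. Coculture 4, 1 and 6 were the highest, and the other 3 lay within 1.5 times the highest control. In coculture 4 the B cell genes MS4A1 (1.16 CPM) and CD79A (1.02 CPM), named after their values were seen, led the sum, while TRAC was at 0 throughout. Plasmacytoid dendritic cells are the main source of interferon alpha in blood. Over all 10 of their markers the sum was 135 to 238 CPM in coculture and 158 to 259 CPM in controls, with no rise. For the 8 with a control mean under 1 CPM, the sum was 1.05, 0.463, 0.429, 3.45, 0.632 and 0.650 CPM against 0.0485 to 0.124 CPM. CLEC4C and LILRA4, which define these cells, had no count in any library, and SPIB (1.498 CPM) and IRF8 (1.28 CPM), also B cell genes, led the sum in coculture 4. How reads were counted is not stated, so marker rows at 0 throughout, in any of these lists, do not show that a cell type was absent. The part that RNA of blood cells has in the shift of the interferon genes was not tested.

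**Figure D5:**
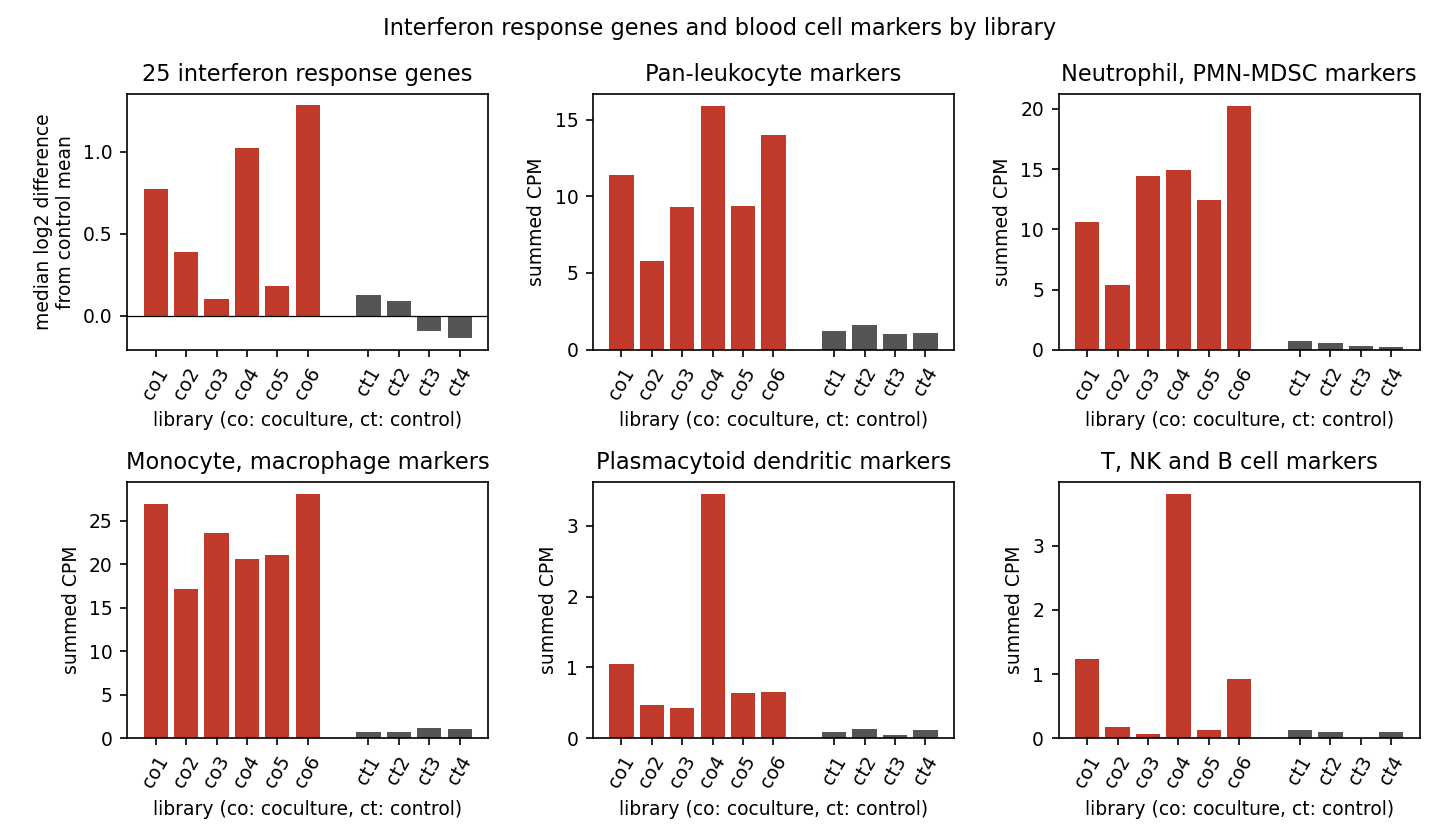
Median log2 shift of the 25 tested interferon response genes (top left) and summed CPM of blood cell markers with a control mean under 1 CPM (other panels) in each coculture (red) and control (grey) library. Coculture 1, 4 and 6 are the highest for the interferon genes, the pan-leukocyte and the T, NK and B cell markers, and the neutrophil and monocyte sums rank the libraries differently.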

How the data were processed

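RNA-seq of TPC-1 cells gave 6 coculture and 4 control libraries, grouped by their titles. Per the labels' protocols total RNA was used, and the submitters' processing notes name GRCh38.p10 as the build and HISAT2 2.0.4 and BWA as tools, without roles. What counted the reads, on which annotation and whether by strand is not given in the sources used here. Raw read counts per gene were deposited by the authors, whole numbers with totals of 40237801 to 48197608, and the miRNA counts were not used here. No 2 libraries agreed within sampling noise (chi-square per degree of freedom of 7.17 or more). The closest were control 3 and 4 (7.17), coculture 1 and 2 (12.9), coculture 5 and 6 (13.4) and coculture 3 and 4 (14.5). Coculture 1 and 2 against coculture 3 to 6 gave 107 to 157.

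Counts were scaled by TMM and fitted with edgeR 4.0.16 (quasi-likelihood, robust, filterByExpr by group) in R 4.3.3 as coculture minus control over 15629 genes, with Benjamini-Hochberg adjustment and a threshold of 0.05. The SE is the fold change over the root of its F value. Levels are CPM of the TMM-scaled totals, and shifts use log2(CPM + 0.5). TPM use the row's gene length. The script was tested on simulated counts. Alternatives were DESeq2 1.42.0, limma-voom (limma 3.58.1), other scaling, filters and pseudocounts, libraries left out and the replicate block. The block used the libraries numbered 1 to 4. Intervals and floors (3 counts per library) cover counting error only, since no molecular identifiers are named. Ratios to a floor take the coculture mean without error.

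The genes, the 12 further lists and the alternatives were chosen with earlier results of these data known. All 10 library values were given for genes past the threshold, the 8 with the next smallest adjusted p, and the 4 with the widest coculture ratio among those of at least 1 CPM. From other lists, apart from the blood cell markers, which are given as sums, the genes past the threshold (at most 6), or else the 3 with the smallest adjusted p, were named. HERC5 and further genes were named beyond that rule after their values were seen, and some genes the rule names are not reported here. Promoter windows came from RefSeq (GRCh38.p14).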

Additional observations from a re-analysis of the deposited data

Results flagged for a closer look

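Among the interferon response genes, 1 library value lay far from the rest of its group. ISG15 measured 74.3 CPM in coculture 6, where the other 5 coculture libraries ran from 16.5 to 37.3 CPM. The rule for such a gap, relative to the group's range, has a nominal rate of about 1 in 20 groups. It was applied to CPM and not to its log2. Some genes, ISG15 among them, were named for a wide ratio within coculture, so that rate does not measure chance here. Of 109 groups of named genes (58 genes), 13 showed such a gap.

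The other 12 gaps were in genes outside the list. In coculture 4, LGALS9 stood at 1.02 CPM (the others 0.274 to 0.457), IRF8 at 1.28 CPM (0.295 to 0.596) and HCLS1, a blood cell adaptor, at 2.57 CPM (0.404 to 0.954). IFNE stood at 0.477 CPM in coculture 3 (0.115 to 0.238), and TNFAIP3 at 7.79 CPM in control 2 (2.96 to 3.59). In coculture 2, CD53 was low at 0.547 CPM (1.88 to 1.95), LYZ was low at 9.79 CPM (13.7 to 15.8), and VIM was high at 4585 CPM (3763 to 3977). LYZ stood at 0.203 CPM in control 4 (0.0427 to 0.0494). The last 3 gaps concern controls with few counts, namely VAV1 at 0.0226 CPM in control 4 and S100A9 at 0.0214 CPM in control 1 (the others 0), and ITGAM at 0 CPM in control 1 (0.0226 to 0.0247).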

How the results depend on the processing

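All 465 fold changes of the tested interferon response genes under 19 alternatives kept their sign, 444 also their side of the threshold, while 9 gained and 12 lost a call. The count of these genes called higher, 2 by edgeR, was 6 with DESeq2 (IFI6, IFIH1, USP18 and EPSTI1 added), 4 with no filter (IFIH1 and EPSTI1 added), 1 with limma-voom, 1 with the stricter filter (which BST2 did not pass), 1 with the replicate block, 0 without coculture 1 and 2, and 1 to 3 on leaving out 1 library. It was 3 without coculture 3 (BST2, IFIH1 and EPSTI1) and 3 without coculture 5 (BST2, MX1 and USP18). The other 8 such fits, each without one of the remaining libraries, gave 1, BST2. None was called lower in any fit. Over all genes, 178 higher became 333 with DESeq2, 95 with the replicate block and 112 to 204 on leaving out 1 library (114 without control 3 and 112 without control 4). The 29 lower became 106 with DESeq2, 112 without coculture 1 and 2, 16 with the libraries numbered 1 to 4 and no block, 10 with the replicate block and 4 to 36 on leaving out 1 library. The median log2 fold change of the interferon genes ran from 0.63 with the replicate block to 0.98 without coculture 3. The replicate block was fitted on the libraries numbered 1 to 4, without coculture 5 and 6, so its results differ in samples as well as in model. The replicate numbers are not stated to pair the libraries. Deviations of same-numbered libraries correlated at 0.38, -0.04, 0.26 and 0.15. Coculture 1 and 2 both correlated best with control 1, and coculture 3 and 4 both with control 3. These correlations cannot settle whether the numbers pair the libraries, because coculture 1 and 2 stood apart from the others over all genes. Of the edgeR calls named in the report, the replicate block ended those of MX1 (adjusted p = 0.0798), LGALS9 (adjusted p = 0.123), IRF8 (0.107) and TNFAIP3 (0.0806), and not those of BST2 and PTPN6. The fit of IFNE without coculture 3 gave -1.55 (edgeR adjusted p = 0.0308). Depth limits BST2, CMPK2, IRF7 and the 4 untested genes. The causes of these changes were not tested, apart from the genes that a filter removed.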
